A study of Mus musculus with 13 samples.

Results

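The livers of calorie-restricted obese mice were compared with those of obese mice that stayed on a high fat diet. The comparison rests on 9 of the 13 liver RNA samples of the series, each hybridised to its own Affymetrix mouse gene array: 5 of caloric restriction (CR) and 4 of continued high fat diet (HFD). The arrays were chosen by their titles, and 13308 of the 22180 genes with a probe set of their own were bright enough to be tested. All mice were male C57Bl/6J and began a diet with 60% fat at the age of 6 weeks. They ate it freely for 4 weeks, so that both groups were made obese before they parted. For the next 4 weeks the HFD mice kept that diet. The CR mice had their calories cut by 15 to 30%, a cut set to bring their weight to that of another group, with 4 arrays (CANA). That group stayed on the diet and received canagliflozin, an inhibitor of the kidney's sodium-glucose cotransporter, at 25 to 30 mg/kg. Food restriction is therefore a control for weight in this design, and no weights, food intakes or feeding times were examined here. The labels do not name what the restricted mice ate beyond the cut, how long before collection they had last eaten, or whether each array holds the RNA of 1 animal. The p-values thus reflect variation among these samples, which may be in part technical. The tissue is given as liver by the series' own text, and the 12 tested hepatocyte markers had mean levels between 9.57 and 14.0 on the log2 scale, far above the filter on dim genes.

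The liver answers food shortage by a change of fuel. Falling insulin releases the FoxO transcription factors, which raise genes such as Igfbp1 and those of glucose production, while glucagon, glucocorticoids and the fatty acid sensor PPAR-alpha act on overlapping sets of genes and lipid synthesis is turned down. The same tissue makes most of the proteins of blood plasma, which are folded in the endoplasmic reticulum (ER) by chaperones whose genes respond to the load of new protein. It also reads the pulses of growth hormone that differ between the sexes, and its clock follows meal times.

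All values are log2 of the deposited expression level, and differences are CR minus HFD on that scale. No gene passed a limma test at a Benjamini-Hochberg adjusted p of 0.05 (0% of 13308 genes), and 498 genes (3.74%) had an unadjusted p under 0.05 where 665 would be expected by chance. Of these, 230 (1.73%) were higher and 268 (2.01%) lower in CR. The smallest adjusted p was 0.434 by limma, for the olfactory receptor gene Olfr331, a dim gene chosen here after its values were seen. Olfr331 was called by limma with the replicate number as a block (adjusted p = 0.0324), with the first of the label numbers described below as a covariate (adjusted p = 0.00425) and with the sets of that number as a term (adjusted p = 0.00683), and in none of the other settings run. It stood at 5.40, 5.32, 4.79 and 4.54 in HFD replicates 1 to 4 and at 3.99, 4.41, 3.63, 3.84 and 3.54 in CR replicates 1 to 5, so that the groups did not overlap. Its difference was -1.13 (SE 0.20). Every other gene named with its values below had a limma adjusted p of 0.999 in CR minus HFD. None of them is called changed, and the words higher and lower describe measured means.

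The differences were small, and the arrays were precise enough to bound them. The median size of a difference was 0.0782, the 95th percentile 0.259 and the 99th 0.396. Only 53 of the tested genes differed by at least 0.5 and 2 by at least 1. The 95% interval of the difference lay within -1 to 1 for 13196 genes (99.2%) and within -0.5 to 0.5 for 11720 (88.1%). It crossed 1 or -1 for 112 genes (0.842%), for which a change of that size cannot be set aside by these arrays.

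**Figure D1:**
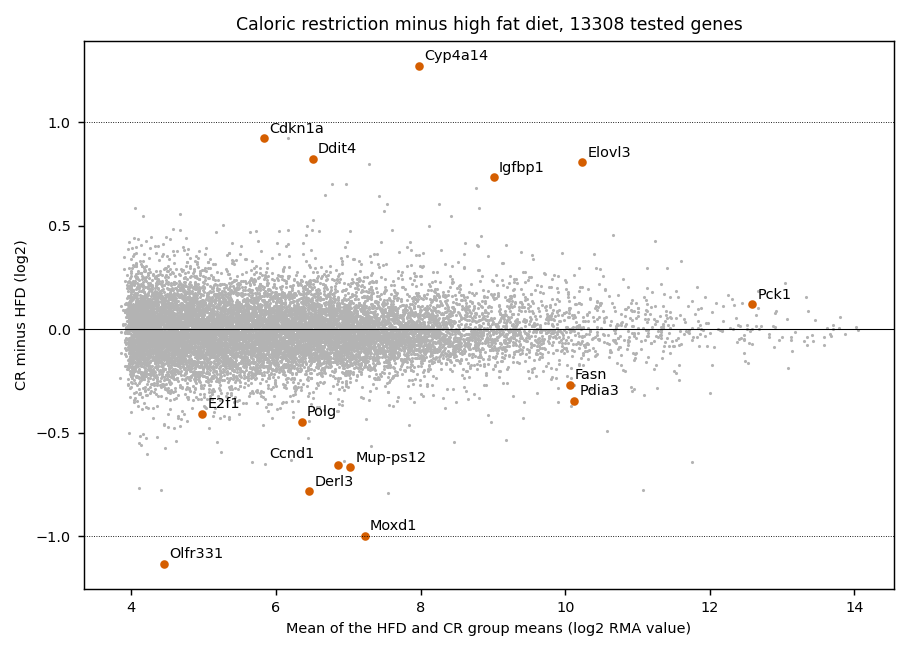
Each point is a tested gene, placed by the mean of its HFD and CR group means (log2 RMA value, horizontal) and by its CR minus HFD difference (log2, vertical), with dotted lines at 1 and -1 and named genes in orange. Cyp4a14 at 1.27 and Olfr331 at -1.13 lie beyond the dotted lines, and the median size of a difference is 0.0782.

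CR arrays were as like HFD arrays as they were like each other. The 10 pairs of CR arrays correlated at 0.9832 to 0.9889 across genes (median 0.9856), the 6 pairs of HFD arrays at 0.9825 to 0.989 (median 0.9842), and the 20 pairs of a CR with an HFD array at 0.9807 to 0.9891 (median 0.9857). These are correlations across genes, which are not independent replicates. The spread was also alike: the median standard deviation of a gene was 0.159 among CR arrays and 0.154 among HFD arrays, and 52.0% of genes had the larger one in CR. The labels carry a pair of bracketed numbers of unstated meaning. By the first, HFD replicates 1 and 2 and CR replicates 1 to 3 lie at 8 or below, and the other arrays at 9 or above. By the second, HFD replicates 1 and 2 and CR replicate 1 lie at 16 or below, and the other HFD and CR arrays at 19 or above. On the first principal component of the 9 arrays, with 24.1% of the variance, HFD replicates 1 and 2 lay at -19.44 and -15.29 and HFD replicates 3 and 4 at 8.535 and 9.205, so the HFD group itself was split by both numbers. The 5 CR arrays lay from -8.706 to 12.23, with CR replicates 4 and 5 beyond the highest HFD array. The medians of many gene lists turned sign within 1 or more of these sets, and examples stand beside the lists.

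Genes of the fed-to-fasted switch differed in some CR arrays and not in others. Igfbp1, which insulin represses and whose product binds insulin-like growth factors, stood at 8.27, 8.92, 8.65 and 8.72 in HFD and at 8.69, 8.63, 8.74, 10.29 and 10.54 in CR replicates 1 to 5. CR replicates 4 and 5 were above every HFD array, and the other 3 CR arrays lay inside the HFD range. The group means were 8.64 ± 0.27 (SD, n = 4) and 9.38 ± 0.95 (SD, n = 5), a difference of 0.74 (SE 0.44). Replicates 4 and 5 are the CR arrays with the first bracketed number above 8, and within that set the Igfbp1 difference was 1.73, against 0.09 in the other.

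The same pair of CR arrays led in several genes of this switch. Cdkn1a, the cell cycle inhibitor p21 and a FoxO and glucocorticoid target, had 4.70, 4.98, 5.96 and 5.83 in HFD and 6.65, 4.94, 4.94, 7.33 and 7.59 in CR. CR replicates 1, 4 and 5 were above all HFD arrays and replicates 2 and 3 were within their range. Ddit4, an inhibitor of mTOR signalling that glucocorticoids and energy stress induce, had 6.07, 5.84, 6.72 and 5.75 in HFD and 6.97, 6.58, 6.17, 7.38 and 7.50 in CR. All CR arrays but replicates 2 and 3 were above the highest HFD array. The mean differences were 0.92 (SE 0.52) for Cdkn1a and 0.82 (SE 0.31) for Ddit4. Pdk4, the kinase that shuts off pyruvate dehydrogenase in fasting, differed by 0.34, the coactivator gene Ppargc1a by 0.28 and the salt-inducible kinase gene Sik1 by 0.34, each again with CR replicates 4 and 5 as the highest of the 9 arrays.

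The enzymes of glucose production differed little, apart from Got1. Pck1, the rate-limiting enzyme of gluconeogenesis, stood at 12.56, 12.56, 12.66 and 12.33 in HFD and at 12.48, 12.72, 12.50, 12.82 and 12.73 in CR. G6pc, the enzyme that releases free glucose, stood at 11.38, 10.91, 11.29 and 11.26 in HFD and at 11.23, 11.29, 11.38, 11.74 and 11.50 in CR. The groups overlapped in both genes, with differences of 0.12 (SE 0.10) and 0.22 (SE 0.15), and CR replicates 4 and 5 were the highest of the 9 arrays in both. Got1, the cytosolic aspartate aminotransferase, was the only tested gene of the list with an unadjusted p under 0.05 (1.73% of all tested genes were higher by that measure). It stood at 11.02, 10.97, 11.02 and 11.09 in HFD and at 11.33, 10.94, 11.13, 11.90 and 11.97 in CR, where all but replicate 2 were above the HFD arrays and replicates 4 and 5 far above. Its difference was 0.43 (SE 0.20), at 0.14 in the set of low first numbers and 0.88 in the other. Of 13 tested genes of gluconeogenesis 9 were above 0, with a median of 0.0945, where 46.4% of all tested genes were above 0 and the median of all was -0.0103. Among the arrays with a second number of 19 or more the median was -0.0495. Of 15 insulin-repressed FoxO targets 12 were above 0 (median 0.122), and of 18 glucocorticoid targets 14 (median 0.0904, and -0.023 with a second number of 19 or more). Tat, a tyrosine-degrading enzyme that glucocorticoids induce, differed by 0.22.

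CR replicates 4 and 5 were the highest pair among the 9 arrays in 4 of the 13 gluconeogenesis genes, in 4 of the 15 FoxO targets and in 4 of the 18 glucocorticoid targets, against 363 of all tested genes (2.73%). Pck1 and G6pc are members of both the gluconeogenesis and the FoxO list and are counted in each. Of the 98 genes named with values, CR replicates 4 and 5 were the highest pair in 20. Over all genes, each of the 10 possible pairs of CR arrays was the highest in 2.01 to 3.11%. Other pairs of CR arrays reached like shares in other lists. CR replicates 2 and 4 were the highest pair in 4 of 13 sinusoidal endothelial markers. CR replicates 3 and 4 were the lowest pair in 6 of 17 citric acid cycle genes, and CR replicates 1 and 4 in 7 of 22 interferon-stimulated genes. The pair of replicates 4 and 5 was picked after its values were seen, and these counts are a description. The mean deviation of the glucocorticoid targets from their HFD means was 0.239, -0.105, -0.194, 0.248 and 0.701 in CR replicates 1 to 5 and -0.231, -0.0792, 0.162 and 0.148 in HFD. CR replicate 5 alone lay far above the HFD arrays, and replicate 3 was the lowest of CR.

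**Figure D2:**
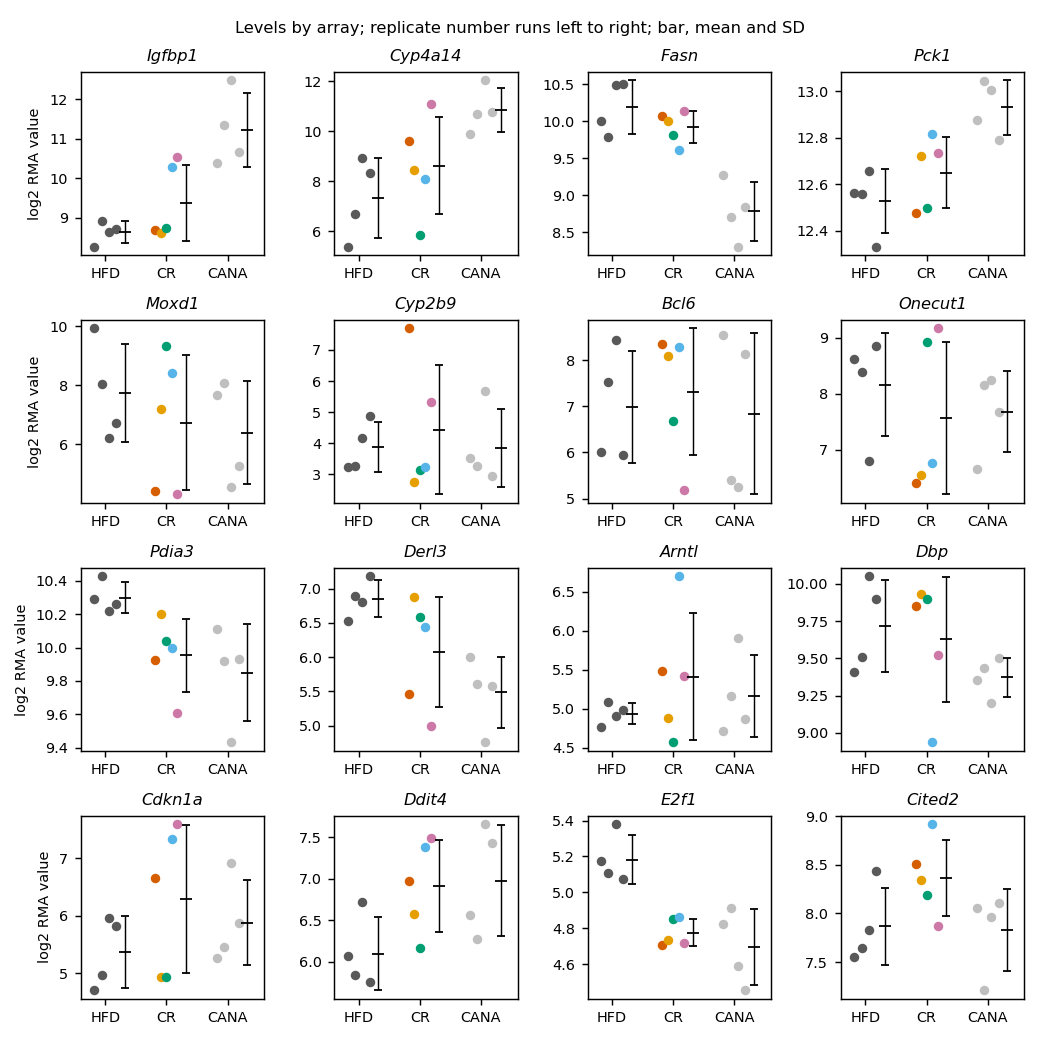
Log2 RMA values of 16 genes in each HFD (dark), CR (coloured by replicate, as in the plot of lists) and CANA (light grey) array, with replicate number running from left to right and a bar for the mean and standard deviation of each group. For Igfbp1 the CR arrays lie at 8.69, 8.63, 8.74, 10.29 and 10.54 and the HFD arrays between 8.27 and 8.92, whereas all CR arrays of E2f1 lie below all HFD arrays.

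Lipid genes gave no common direction. Fasn, the fatty acid synthase, stood at 10.00, 9.79, 10.49 and 10.51 in HFD and at 10.07, 10.00, 9.81, 9.61 and 10.14 in CR. The CR arrays lay within or just below the HFD range, and the difference was -0.27 (SE 0.19). It was 0.07 in the set of low first numbers and -0.62 in the other. Scd1, the stearoyl-CoA desaturase, differed by -0.05, Srebf1, which encodes the main lipogenic transcription factor, by -0.12 and Thrsp, a regulator of lipogenesis, by 0.08. Of 19 tested genes of fatty acid synthesis, 7 were above 0 with a median of -0.0429. That median was 0.109 and -0.155 in the sets of low and high first numbers, and 0.24 and -0.156 in those of low and high second numbers. In mitochondrial fatty acid oxidation 9 of 19 were above 0 (median -0.00464, and 0.0914 with a second number of 16 or less), and Cpt1a, which admits fatty acids to mitochondria, differed by -0.04 (SE 0.13).

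PPAR-alpha targets varied more among CR arrays than between the groups. Cyp4a14, a fatty acid hydroxylase and a sensitive target, stood at 5.40, 6.71, 8.94 and 8.31 in HFD and at 9.62, 8.43, 5.86, 8.10 and 11.07 in CR. Replicates 1 and 5 of CR were above all HFD arrays, CR replicate 3 was near the lowest HFD array, and the standard deviations were 1.60 and 1.93. Its difference of 1.27 (SE 0.85) was the largest positive one of all tested genes, and it was -0.26 among the arrays with a second number of 19 or more. Its paralog Cyp4a31 was steadier, at 5.42, 5.96, 6.54 and 4.90 in HFD and 6.59, 6.31, 6.47, 6.66 and 7.11 in CR. CR replicates 2 and 3 were below the highest HFD array and the other CR arrays above it, with a difference of 0.92 (SE 0.28). Near-identical Cyp4a genes can share probes, so the values of both are uncertain between paralogs. Of 22 tested targets 16 were above 0, with a median of 0.0909, and without CR replicates 1 and 5 the median was -0.0614. Those arrays had the highest mean deviations of the list in CR (0.312 and 0.597), so leaving them out favours a lower median. The list median was -0.194 with a second number of 19 or more and -0.0566 in the set of high first numbers. Fgf21, a PPAR-alpha-driven fasting hormone, differed by 0.20 (SE 0.24).

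Cholesterol synthesis genes were split inside both groups. Their mean deviation from the HFD means was -0.707, -0.142, 0.541 and 0.308 in HFD and -0.48, 0.52, -0.412, 0.381 and 0.462 in CR. CR replicates 1 and 3 lay low and the other 3 high, within the HFD range. Of 17 members 14 were above 0 (median 0.0971), and the median was -0.174 among the arrays with a second number of 19 or more. Cyp7a1, which starts the classic pathway from cholesterol to bile acids, differed by 0.20 (SE 0.31).

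Most ER chaperone genes were lower in CR, and the lowest values came from certain arrays. The folding enzymes of the ER are induced through ATF6 and XBP1, which bind the ER stress element, the letters CCAAT and CCACG with any 9 bases between them. That motif was searched on both strands in the 250 bases before each RefSeq gene start (build GRCm38.p6). It was found in 10 of the 20 ER chaperone genes with a promoter entry (50.0%), in 16 of 10384 tested genes with an entry (0.154%) and in 37 of all 32851 entries (0.113%). A match is a description of letters and not of binding. The comparison of genes with and without the element, given further below, uses all 10. The stretches around the element are shown for 6 of the 10, whose values or differences are given below. They are written in the direction of the gene, and capitals mark the outer letters of the element, as CCAAT and CCACG on the gene's strand or as CGTGG and ATTGG where it lies on the other strand.

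Hspa5 (chr2:34771995-34772073, plus strand): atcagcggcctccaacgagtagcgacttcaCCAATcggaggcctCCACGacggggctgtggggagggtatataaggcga
Hsp90b1 (chr10:86705503-86705686, minus strand): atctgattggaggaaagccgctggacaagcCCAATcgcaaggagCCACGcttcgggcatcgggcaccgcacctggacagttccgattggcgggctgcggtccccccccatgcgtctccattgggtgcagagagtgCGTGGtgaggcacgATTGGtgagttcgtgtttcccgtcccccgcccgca
Pdia6 (chr12:17266461-17266539, plus strand): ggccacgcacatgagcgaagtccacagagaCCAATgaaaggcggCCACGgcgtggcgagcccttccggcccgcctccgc
Calr (chr8:84847045-84847123, minus strand): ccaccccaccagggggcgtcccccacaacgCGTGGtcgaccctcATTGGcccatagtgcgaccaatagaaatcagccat
Creld2 (chr15:88819490-88819568, plus strand): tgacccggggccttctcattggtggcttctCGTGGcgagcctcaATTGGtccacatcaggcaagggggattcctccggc
Derl3 (chr10:75893212-75893290, plus strand): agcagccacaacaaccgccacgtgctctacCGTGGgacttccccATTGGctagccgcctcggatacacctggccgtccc

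The Hsp90b1 stretch holds the element on each strand, and the other 5 hold it on 1 strand. Of 22 tested ER chaperone genes 19 were below 0 and 3 above, with a median of -0.179, where 53.6% of all tested genes were below 0. No member was called, 3 had an unadjusted p under 0.05, all of them lower, and in Pdia3 and P4hb every CR array was below every HFD array. Over all tested genes, 0.721% had all CR arrays below all HFD arrays.

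Derl3, a component of ER-associated degradation, stood at 6.53, 6.90, 6.81 and 7.18 in HFD and at 5.46, 6.88, 6.58, 6.45 and 4.99 in CR. Replicates 1 and 5 of CR lay far below the HFD arrays, and the other 3 lay near them. The difference was -0.78 (SE 0.33). Creld2, a secreted chaperone of the ER, had 9.15, 8.97, 8.70 and 8.10 in HFD and 7.89, 8.88, 8.05, 8.63 and 7.49 in CR. Again CR replicates 1 and 5 were the lowest, with a difference of -0.54 (SE 0.25). Hspa5, the master chaperone BiP, had 8.54, 8.66, 8.56 and 8.17 in HFD and 8.05, 8.82, 8.44, 8.62 and 7.73 in CR. Once more CR replicates 1 and 5 were below all HFD arrays and the other 3 within or above their range, and the difference was -0.15 (SE 0.19).

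In the abundant folding proteins CR replicates 1 and 5 were again the lowest. Calr, the calcium-binding chaperone of glycoproteins, stood at 11.19, 11.09, 11.13 and 10.96 in HFD and at 10.70, 11.12, 10.93, 10.94 and 10.34 in CR. Hsp90b1, the ER form of HSP90, stood at 11.50, 11.54, 11.29 and 11.32 in HFD and at 10.86, 11.68, 11.20, 11.15 and 10.78 in CR. In both genes CR replicate 2 was within or above the HFD range and replicates 1 and 5 were the lowest of all 9 arrays. The remaining CR arrays also lay below every HFD array, by less. Pdia6, a disulphide isomerase, differed by -0.35 (SE 0.17) and Hyou1, a large ER chaperone, by -0.45 (SE 0.28). Pdia3, the isomerase that works with calreticulin, stood at 10.29, 10.43, 10.22 and 10.26 in HFD and at 9.93, 10.20, 10.04, 10.00 and 9.61 in CR. All CR arrays lay below all HFD arrays, with a difference of -0.34 (SE 0.13). Dnajb9, an ER cochaperone, went the other way at 0.28 (SE 0.17).

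CR replicates 1 and 5 were the lowest pair of the 9 arrays in 13 of the 22 ER chaperone genes, against 438 of all tested genes (3.29%). Over all genes, each of the 10 possible pairs of CR arrays was the lowest in 2.06 to 3.32%. This pair, too, was picked after its values were seen, and the counts are a description. The mean deviation of the 22 genes was -0.41 and -0.63 in those arrays, 0.13, -0.14 and -0.04 in CR replicates 2 to 4, and between -0.12 and 0.12 in HFD. Without the pair the median difference was -0.0113, with 10 of 22 genes above 0. Leaving out arrays picked for low values would raise the median in any case. Among the arrays with a second number of 19 or more the median was -0.0606, and among those at 16 or less, where CR has replicate 1 alone, it was -0.498. By the first number it was -0.246 in the lower set and -0.204 in the upper. The 10 genes with the promoter element were all below 0 with a median of -0.277, and had mean deviations of -0.535 and -0.832 in CR replicates 1 and 5. Of the 10 with an entry and no element 7 were below 0 with a median of -0.115, and their mean deviations in those arrays were -0.225 and -0.362. The gap between these sets of genes was not tested.

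**Figure D3:**
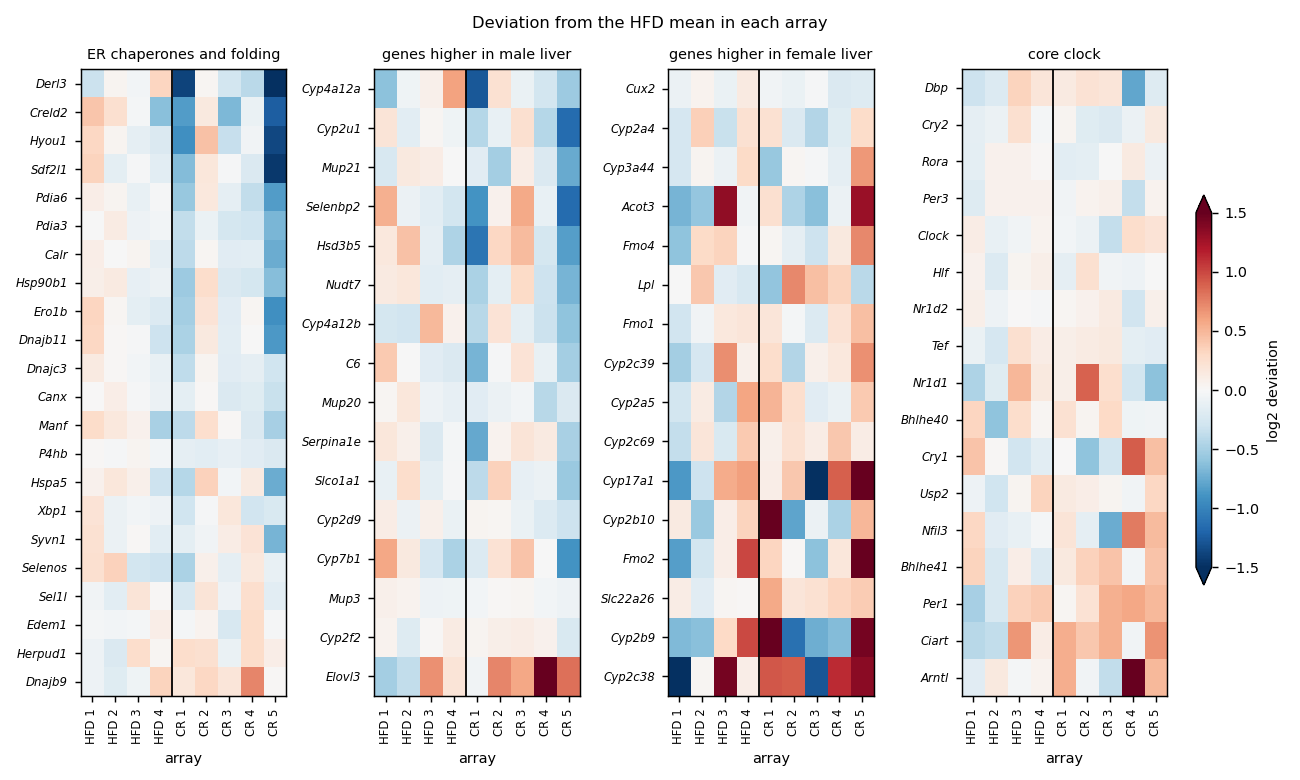
Deviation of each gene from its HFD mean (log2, colour from blue for lower to red for higher, cut at 1.5 either way) in the 4 HFD and 5 CR arrays, for ER chaperones, genes higher in male liver, genes higher in female liver and core clock genes, with a line between the groups. CR replicates 1 and 5 are the blue columns of the ER panel, where their mean deviations are -0.41 and -0.63.

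The same pair of arrays stood apart in genes that differ between male and female liver, which growth hormone pulses set. Of 16 tested genes higher in male liver 14 were below 0, with a median of -0.205. In 7 of them CR replicates 1 and 5 were the lowest pair of the 9 arrays, against 3.29% of all tested genes. Those arrays had mean deviations of -0.44 and -0.51, CR replicates 2 to 4 had 0.09, 0.17 and -0.04, and the HFD arrays lay between -0.06 and 0.04. With the pair left out, a choice made after its values were seen, the median was 0.0132. It was -0.462 among the arrays with a second number of 16 or less and -0.0443 among those at 19 or more. The sulphur- and selenium-binding gene Selenbp2 stood at 12.68, 12.06, 12.00 and 11.87 in HFD and at 11.25, 12.22, 12.72, 12.04 and 11.01 in CR, and the steroid dehydrogenase gene Hsd3b5 at 8.90, 9.18, 8.60 and 8.27 in HFD and 7.65, 9.05, 9.21, 8.47 and 7.91 in CR. In both, CR replicates 1 and 5 lay below every HFD array and the other 3 CR arrays inside or at the edge of the HFD range.

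The major urinary proteins, pheromone carriers made in bulk by male liver, were closer together. Mup20 differed by -0.18 (SE 0.10), Mup21 by -0.31 (SE 0.15) and Mup3 by -0.02 (SE 0.08). Their genes are near-identical copies that can share probes, so values are uncertain between them. Elovl3, a fatty acid elongase of the male list and a clock-linked gene, had 9.32, 9.46, 10.51 and 10.02 in HFD and 9.78, 10.56, 10.40, 11.78 and 10.66 in CR. CR replicates 2, 4 and 5 were above all HFD arrays, opposite to most of the list (Cyp2f2, another member, was also above 0), with a difference of 0.81 (SE 0.31).

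Genes higher in female liver leaned the other way, less evenly. Of 16 tested, 13 were above 0 with a median of 0.162. CR replicates 1 and 5 had mean deviations of 0.51 and 0.68, CR replicates 2 to 4 of -0.03, -0.34 and 0.12, and the HFD arrays lay between -0.44 and 0.29. The pair was the highest of the 9 arrays in 3 of the 16 genes, against 2.25% of all tested genes. For CR replicate 1 the mean rested on the paralogs Cyp2b9 and Cyp2b10: without them it was 0.159, inside the HFD range of -0.463 to 0.238, and that of CR replicate 5 was 0.641. With the pair of arrays left out, by the same choice, the median of the list was -0.0834. It was 0.595 with a second number of 16 or less and -0.121 with 19 or more. Cyp2b9, a cytochrome P450 of female liver, stood at 3.23, 3.26, 4.18 and 4.88 in HFD and at 7.70, 2.77, 3.16, 3.23 and 5.32 in CR. CR replicate 1 was far above the other 8 arrays, CR replicate 5 next, and CR replicates 2 to 4 at or below the lowest HFD arrays. Cyp2b10, its phenobarbital-inducible paralog, had 6.33 in CR replicate 1, 3.37 to 4.66 across CR replicates 2 to 5 and 3.61 to 4.49 across the HFD arrays. The organic anion transporter gene Slc22a26 was the member without overlap, at 3.93, 3.65, 3.85 and 3.84 in HFD and 4.39, 4.00, 4.05, 4.14 and 4.20 in CR. Its levels were close to 3.95, the lowest mean of a tested gene, and its difference was 0.34 (SE 0.14).

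Growth hormone signalling itself differed from array to array. A growth hormone pulse induces Socs2, its feedback inhibitor, and Onecut1, a hepatic transcription factor, and lowers Bcl6, a repressor prominent in male liver. Bcl6 stood at 6.02, 7.54, 8.44 and 5.94 in HFD and at 8.34, 8.09, 6.68, 8.29 and 5.18 in CR. Onecut1 stood at 8.62, 8.39, 6.81 and 8.85 in HFD and at 6.41, 6.55, 8.92, 6.78 and 9.17 in CR. In CR the arrays with high Bcl6 had low Onecut1: replicates 1, 2 and 4 were high in Bcl6 and low in Onecut1, and replicates 3 and 5 the reverse. In HFD that held for replicate 3, the highest in Bcl6, and for replicates 1 and 4, the lowest, while replicate 2 had intermediate Bcl6 and high Onecut1. Socs2 had 5.73, 6.49, 6.54 and 5.89 in HFD and 4.96, 5.88, 6.66, 6.48 and 7.61 in CR, lowest in CR replicate 1 and highest in CR replicate 5. In Socs2, then, CR replicates 1 and 5 were at opposite ends of their group, though alike in the sex-biased lists. The differences were 0.33 (SE 0.78) for Bcl6, -0.60 (SE 0.58) for Onecut1 and 0.16 (SE 0.45) for Socs2. Another probe set of Socs2 gave 0.0034. Igf1, the growth hormone target that circulates as a hormone, was even, at 10.25 ± 0.16 in HFD (SD, n = 4) and 10.21 ± 0.08 in CR (SD, n = 5).

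These genes were also among the most variable in CR. The 10 tested genes with the largest standard deviation among the CR arrays were Moxd1, Cyp2b9, Cyp4a14, Obp2a, Bcl6, Onecut1, Cdkn1a, Cyp17a1, Mt2 and Cyp2b10. Moxd1, a copper-dependent monooxygenase gene, stood at 9.94, 8.04, 6.20 and 6.72 in HFD and at 4.41, 7.20, 9.33, 8.41 and 4.29 in CR. The lowest of all were CR replicates 1 and 5, and the standard deviation was 2.30 in CR and 1.67 in HFD. Mt2, a metal-binding metallothionein that glucocorticoids induce, had 9.78, 10.20, 10.36 and 10.77 in HFD and 10.94, 9.20, 9.30, 9.17 and 11.90 in CR, with CR replicates 1 and 5 the highest and the other 3 below all HFD arrays. Obp2a, a lipocalin gene, had 8.69, 5.35, 7.18, 5.51 and 4.47 in CR, and Cyp17a1, a steroid hydroxylase gene, had 8.80, 9.11, 6.90, 9.60 and 10.29. In all, 15 genes had a standard deviation of at least 1 in CR and 19 in HFD.

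**Figure D4:**
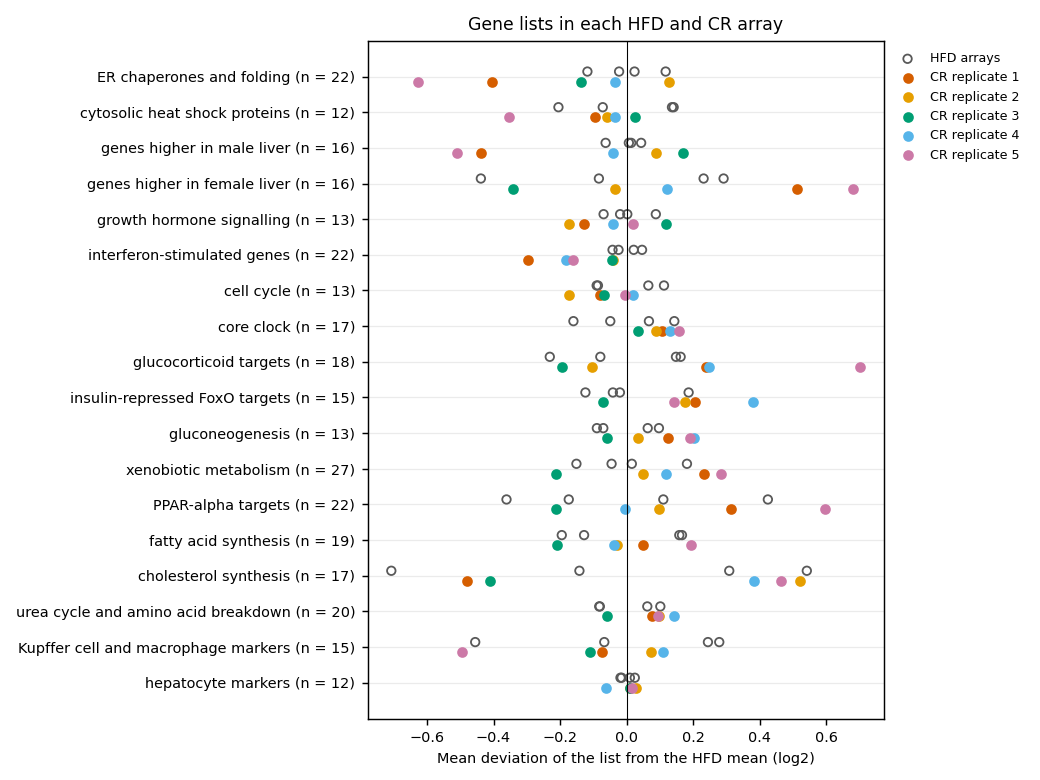
Mean deviation of each gene list from its HFD means (log2, horizontal) in the 4 HFD arrays (open circles) and the 5 CR arrays (filled, coloured by replicate), with the number of tested genes in brackets. CR replicates 1 and 5 lie farthest left for ER chaperones (-0.41 and -0.63) and for genes higher in male liver (-0.44 and -0.51), and farthest right for genes higher in female liver (0.51 and 0.68).

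Among the clock genes 1 CR array stood apart. Arntl, the positive arm of the clock also called BMAL1, stood at 4.77, 5.09, 4.91 and 4.99 in HFD and at 5.48, 4.88, 4.57, 6.70 and 5.42 in CR. Dbp, an output gene driven in the opposite phase, stood at 9.41, 9.51, 10.05 and 9.90 in HFD and at 9.85, 9.94, 9.90, 8.94 and 9.53 in CR. CR replicate 4 had the highest Arntl and the lowest Dbp of all 9 arrays. It also had the highest Cry1, a clock repressor, and the highest Nfil3, which opposes Dbp, at 6.88 and 6.90 against at most 6.42 in HFD for either. The differences between the groups were 0.47 (SE 0.33) for Arntl, -0.09 (SE 0.19) for Dbp and 0.10 (SE 0.24) for Cry1. Per1, a clock repressor that glucocorticoids also induce, stood at 7.36, 7.61, 8.19 and 8.24 in HFD and at 7.88, 8.07, 8.38, 8.43 and 8.34 in CR. CR replicates 3 to 5 were above all HFD arrays, with a difference of 0.37 (SE 0.17). Of 17 clock genes 11 were above 0, with a median of 0.0667, and the median was -0.0807 in the set of high first numbers. Collection times were not examined here.

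Genes of cell division were lower in a few members. E2f1, a transcription factor that opens S phase, stood at 5.17, 5.11, 5.38 and 5.07 in HFD and at 4.70, 4.74, 4.85, 4.86 and 4.72 in CR, with every CR array below every HFD array and a difference of -0.41 (SE 0.10). Mcm6, a subunit of the replicative helicase, had 4.55, 4.96, 4.84 and 4.39 in HFD and 3.98, 4.19, 4.31, 4.25 and 4.41 in CR. Only CR replicate 5 reached the lowest HFD array, and the difference was -0.46 (SE 0.12). Ccnd1, cyclin D1, had 7.42, 7.27, 7.79 and 6.24 in HFD and 6.19, 6.36, 7.18, 6.46 and 6.45 in CR. HFD replicate 4 lay among the CR arrays and CR replicate 3 near the HFD arrays, with a difference of -0.65 (SE 0.25). Mki67, the proliferation marker Ki-67, had no overlap but was barely bright enough to be tested, at 4.16 ± 0.10 in HFD (SD, n = 4) and 3.98 ± 0.02 in CR (SD, n = 5). Of the 13 tested cell cycle genes 5 were above 0 with a median of -0.0778, and 3 were lower at an unadjusted p under 0.05. Over all tested genes 2.01% were lower by that measure, and 0.721% were lower without overlap. The mean deviation of the list was -0.081, -0.172, -0.0669, 0.0189 and -0.00448 in CR and between -0.0902 and 0.112 in HFD, so the groups overlapped. Cdkn1a, also on this list, differed by 0.92. In bulk tissue, fewer dividing cells and less of the RNA in each cell cannot be told apart, and this holds for every gene of a minor cell type.

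Interferon-stimulated genes leaned low without any single strong member. Of 22 tested, 20 were below 0 with a median of -0.192. The mean deviation was -0.30, -0.04, -0.04, -0.18 and -0.16 in CR replicates 1 to 5 and between -0.04 and 0.05 in HFD. CR replicates 1, 4 and 5 lay below the HFD arrays and replicates 2 and 3 at their lower edge, and without replicates 1 and 5 the median was -0.0887. Leaving out arrays with low values favours a higher median. Irf9, part of the interferon-activated transcription complex, stood at 7.09, 7.26, 7.03 and 7.12 in HFD and at 6.68, 7.14, 6.89, 6.83 and 6.98 in CR, where replicate 2 alone was inside the HFD range. Its difference was -0.22 (SE 0.10), that of the immunoproteasome gene Psmb9 -0.24 (SE 0.10) and that of the antiviral gene Oasl1 -0.22 (SE 0.10). The median was -0.13 in the set of low first numbers and -0.194 in the other.

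Markers of the other liver cells overlapped between the groups as lists, and differed between CR arrays. Of 15 Kupffer cell and macrophage markers 4 were above 0 (median -0.0551), and the median was -0.201 in the set of low first numbers and 0.0738 in the other. Marco, a scavenger receptor of macrophages, ranged from 4.50 to 7.64 in HFD and from 4.99 to 5.85 in CR. The mean deviation of the 15 markers was -0.0742, 0.074, -0.11, 0.109 and -0.494 in CR replicates 1 to 5 and 0.278, 0.244, -0.455 and -0.0673 in HFD, and CR replicate 5 was the lowest of the 9 arrays in 9 of them. Sinusoidal endothelial markers had a median of 0.0525 (10 of 13 above 0), and -0.0279 with a second number of 19 or more. Their mean deviation was 0.138, 0.222, -0.136, 0.385 and -0.0896 in CR and between -0.252 and 0.19 in HFD, and CR replicate 4 was the highest of the 9 arrays in 8 of them. Stellate cell markers had a median of 0.0407 (9 of 12 above 0), and -0.0739 in the set of low first numbers, and hepatocyte markers 0.00707 (7 of 12), and -0.013 in the set of high first numbers. Of the markers of other cells, 4 of 8 cholangiocyte, 4 of 12 T and NK cell and 1 of 10 neutrophil genes on the array were bright enough to be tested. The part of cell composition in the differences between CR arrays was not tested.

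Among other pathways, energy sensing and autophagy lay close to 0, and heat shock, xenobiotic and amino acid genes leaned one way. Of 21 genes of AMPK, sirtuin and mTOR signalling 14 were above 0 (median 0.0353, and -0.0605 with a second number of 19 or more), with Ddit4 above and Mtor, the kinase itself, at -0.21 (SE 0.10). Of 21 autophagy and lysosome genes 11 were above 0 (median 0.0116, and -0.0356 with a second number of 19 or more). The paralogs Map1lc3a and Map1lc3b, which encode the autophagosome protein LC3, differed by 0.24 (SE 0.10) and 0.26 (SE 0.12). Map1lc3b stood at 9.46, 9.58, 9.88 and 9.95 in HFD and at 9.91, 10.02, 9.90, 9.94 and 10.15 in CR, so that HFD replicate 4 lay among the CR arrays, HFD replicate 3 just under the lowest of them and HFD replicates 1 and 2 further below. Within the sets of low and high first numbers it was 0.42 and 0.13. Cited2, a coactivator-binding FoxO target, stood at 7.55, 7.65, 7.83 and 8.44 in HFD and at 8.51, 8.34, 8.19, 8.92 and 7.87 in CR. HFD replicate 4 lay above 3 of the CR arrays, and the difference was 0.50 (SE 0.23). Of 12 cytosolic heat shock genes 3 were above 0 (median -0.157, and 0.0037 with a second number of 19 or more). The mean deviation was -0.354 in CR replicate 5, from -0.0942 to 0.0251 in CR replicates 1 to 4 and from -0.205 to 0.141 in HFD, and the mitochondrial chaperonin gene Hspd1 of that list differed by -0.19 (SE 0.08). Of 27 genes of xenobiotic metabolism 22 were above 0 (median 0.129, 0.0159 without CR replicates 1 and 5, and -0.006 with a second number of 19 or more). CR replicates 1 and 5 had the highest mean deviations of that list in CR (0.233 and 0.282), so leaving them out favours a lower median. Of 20 genes of the urea cycle and amino acid breakdown 18 were above 0 (median 0.0603, and -0.0102 with a second number of 19 or more). The citric acid cycle and the respiratory chain had medians of 0.0219 and 0.00193.

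The genes without overlap between the groups were mostly outside these pathways, as were most of the tested genes. The CR and HFD arrays did not overlap in 156 tested genes (1.17%), 60 higher (0.451%) and 96 lower (0.721%) in CR. With so few arrays and 13308 genes, many separate by chance, and none of these was called in the main limma fit. Among the brighter of them, with a group mean of at least 6, the lowest differences were those of Mup-ps12, a major urinary protein pseudogene (-0.67), Polg, the polymerase of mitochondrial DNA (-0.45), and Rassf8, a Ras association domain gene (-0.42). Polg stood at 6.60, 6.64, 6.55 and 6.53 in HFD and at 6.12, 6.06, 6.03, 6.11 and 6.34 in CR, where replicate 5 lay nearest to the HFD arrays. Below these came Rprd1a (-0.37), the helicase gene Dhx57 (-0.36), the mRNA export gene Sarnp (-0.34), Pdia3, the non-muscle myosin gene Myh9 (-0.31), the golgin gene Golga1 (-0.28) and Sipa1l1 (-0.27). Myh9 stood at 9.06, 8.88, 8.80 and 8.85 in HFD and at 8.56, 8.55, 8.49, 8.62 and 8.70 in CR. Mup-ps12 shares its sequence with other urinary protein genes and is uncertain for that reason.

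Above the same mean of 6, the highest differences without overlap belonged to Rnu11, a small nuclear RNA of the minor spliceosome (0.36), and Trmt1, a tRNA methyltransferase gene (0.31). Dhrsx and Ess2 followed at 0.30 each, then Spata5l1 (0.30), the SUMO protease gene Senp2 (0.28), Vezf1 (0.27), Tst, the mitochondrial thiosulfate sulfurtransferase (0.26), Zfp511 (0.26) and the lysosomal gene Cln3 (0.21). Tst stood at 8.90, 8.70, 8.99 and 9.02 in HFD and at 9.40, 9.03, 9.08, 9.23 and 9.10 in CR. CR replicate 2 lay just above HFD replicate 4, and the gap came mainly from CR replicates 1 and 4. Genes were chosen here for not overlapping, so their separation is a description.

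In the genes called under the drug, restriction to matched weight gave smaller differences. Both comparisons use the same HFD arrays and are therefore not independent, so the values are given side by side with the direct CANA minus CR test. That test shares the CANA arrays with the comparison by which the genes were chosen. Its calls among these genes are therefore favoured by the choice and are a description. Of the 13308 genes, 22 (0.165%) were called in CANA minus HFD by limma, and 15 of the 22 were also called in CANA minus CR, where 20 genes (0.15%) were called in all. For 18 of the 22 the 95% interval of CR minus HFD held 0, and for all 22 it left out the CANA minus HFD difference. The CANA difference was taken there without its own error, and the choice of genes favours large values of it. The median size was 0.134 in CR minus HFD and 1.03 in CANA minus HFD, on which these genes were chosen.

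Lepr, the leptin receptor, stood at 4.35, 3.94, 4.11 and 4.60 in HFD and at 4.67, 4.14, 4.47, 4.71 and 5.51 in CR, where replicate 5 was the highest and the others lay near the HFD range. It differed by 0.45 (SE 0.26) in CR minus HFD. Ppp1r3c, which targets a phosphatase to glycogen, stood at 6.47, 5.88, 7.18 and 6.95 in HFD and at 7.46, 7.00, 7.19, 7.16 and 7.81 in CR. Its difference was 0.70 (SE 0.23) in CR minus HFD and -1.41 in CANA minus HFD, and CANA minus CR was -2.11 (limma adjusted p = 0.001). Of the 22 genes 14 had the same sign in both comparisons. Fh1, which encodes fumarate hydratase, differed by -0.01 (SE 0.10) in CR minus HFD, Nnmt, the nicotinamide N-methyltransferase, by 0.06 (SE 0.14) and Slc22a5, the carnitine transporter, by 0.09 (SE 0.15).

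**Figure D5:**
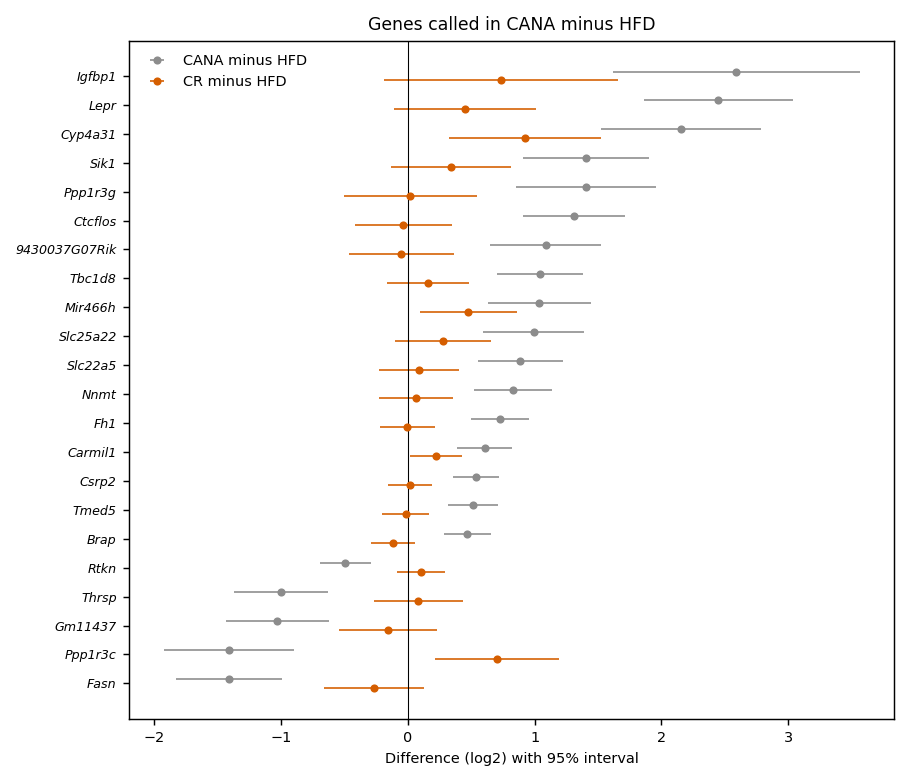
CR minus HFD (orange) and CANA minus HFD (grey) differences with 95% intervals (log2, horizontal) for the 22 genes called in CANA minus HFD, ordered by the grey value. The largest orange difference in size is 0.923, for Cyp4a31, and the 95% interval of CR holds 0 for 18 genes.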

How the data were processed

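Liver RNA (250 ng) was labelled by the WT Plus protocol per the labels. The deposited log2 values were computed by the authors by RMA, the robust multi-array average, in Affymetrix Expression Console, per the submitters' processing notes, with no versions given. Arrays were named by the labels' titles. Neither scanner files nor detection calls were used, and precision is limited by how many arrays there are.

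Of 41345 probe sets 23521 had exactly 1 gene symbol in the platform annotation. For the 1082 genes with several, the brightest was taken. Dim genes, whose mean fell under the 40th percentile (3.95), were dropped. For CR against HFD, limma 3.58.1 (R 4.3.3) was fitted once to the 13 arrays with the group as the only term (residual degrees of freedom 10, prior 5.71), two-sided, with Benjamini-Hochberg adjustment over 13308 genes. The fit was tested on simulated data with independent errors. It called 53.8% of changes of 0.5 and 97% of changes of 1, and 3.58% of its calls were false. Many real changes of 0.5 could thus go uncalled.

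The comparison, gene lists and rules were chosen with earlier results of these data known. Lists are described by counts and medians. Genes named are the 10 highest and 10 lowest differences without overlap at a mean of at least 6, up to 4 members of each list by p, the 10 with the largest spread in CR, a panel of metabolic genes, and those called under the drug. Promoter sequences are RefSeq's.

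Replicate numbers 1 to 4 are shared by the titles, but deviations of same-numbered CR and HFD arrays correlated at 0.0402, 0.0247, -0.15 and 0.116, so the numbers were not taken to pair arrays.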

Additional observations from a re-analysis of the deposited data

Results flagged for a closer look

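In 278 sets of values (98 genes and 41 lists, in HFD and in CR), 13 had 1 array far from the others of its group by Dixon's test. Chance gives about 1 in 20, so the count is no more than chance would give, and the arrays below are listed as a description. Among CR arrays, Ccnd1 was at 7.176 in replicate 3 with the others at 6.46 or below, and Gadd45g, a stress-induced growth arrest gene, at 8.966 in replicate 5 with the others at 7.46 or below. Carmil1, a regulator of actin capping, was at 6.82 in CR replicate 2 with the others at 6.56 or below.

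Among HFD arrays, Igfbp2, a circulating binding protein of insulin-like growth factors, was at 9.112 in replicate 3 with the others at 9.94 or above. HFD replicate 1 stood apart in Ghr, the growth hormone receptor (8.974), Obp2a (8.117) and Sesn1, a sestrin gene (5.535). Zfp511 was at 6.301 in HFD replicate 2.

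The mean deviation of a list stood apart in CR replicate 1 for the respiratory chain (0.1149), in CR replicate 4 for hepatocyte markers (-0.06196), and in CR replicate 3 for pericentral hepatocyte genes (-0.088) and stellate cell markers (-0.346). In HFD replicate 4 it did so for insulin and IGF signalling (0.07194).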

How the results depend on the processing

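At an adjusted p of 0.10 no gene was called by limma either. At 0.05 none was called in the other settings run over all genes, except that 1 was called with the replicate number as a block, 1 with the first bracketed number as a covariate and 1 with its sets as a term. In each it was Olfr331, at -1.05, -1.08 and -1.18 with adjusted p of 0.0324, 0.00425 and 0.00683. The replicate block takes nothing from CR replicate 5, whose number HFD lacks, and changed no other call. Genes higher and lower at an unadjusted p under 0.05 numbered 489 and 430 with no filter on dim genes and 137 and 147 with the 60th percentile as filter. Genes without overlap numbered 156 higher and 154 lower with no filter and 31 higher with the 60th percentile. Leaving out 1 array at a time gave 148 to 372 genes higher at an unadjusted p under 0.05, lowest without HFD replicate 2 and highest without HFD replicate 4, and 101 to 216 higher and 162 to 272 lower without overlap. Without both CR replicates 1 and 5 the last counts were 303 and 446, with fewer arrays to overlap. The cause of the other shifts was not tested.

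Of the 98 genes with values 68 kept the sign of their difference in all settings other than the values within sets, and none was called in any. Of the 41 lists with at least 5 tested genes the median of 16 kept its sign.

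Within the arrays with a second number of 16 or less, where CR has 1 array, list medians were 0.24 for fatty acid synthesis, 0.429 for PPAR-alpha targets, 0.0914 for mitochondrial fatty acid oxidation, -0.0862 for ketone body synthesis, 0.311 for glycolysis, 0.241 for gluconeogenesis, 0.149 for glycogen metabolism, -0.462 and 0.595 for genes higher in male and female liver, -0.498 for ER chaperones, 0.14 for NRF2 targets, 0.176 for the urea cycle, 0.0625 for the respiratory chain, 0.0524 for autophagy, 0.0945 for lipoprotein assembly and 0.118 for cytokine genes. Within 19 or more they were -0.0495 for gluconeogenesis, 0.0037 for heat shock proteins, -0.0135 for the integrated stress response, -0.0365 for the clock, -0.0356 for autophagy, -0.0605 for AMPK and mTOR and -0.138 for adipocyte markers. In the low set of the first number they were 0.102 for glycolysis and 0.0768 for cytokine genes, and in its high set 0.1 for the integrated stress response, -0.0807 for the clock, -0.0173 for fibrosis genes and -0.0605 for pericentral genes. The integrated stress response was at -0.00564 with the replicate block, and at -0.00564 to 0.0537 without 1 array, lowest without CR replicate 5. Without both CR replicates 1 and 5 it was at -0.0134, lipid droplets at -0.184, interferon-stimulated genes at -0.0887 and adipocyte markers at -0.14.

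A limma test of whether a gene's spread differed between the groups failed its check on made-up values with known answers and is void. Here it gave 16 genes, all narrower in CR, and 0 to 53 when 1 array was left out.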

Other observations

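Further gene groups had median differences between -0.0672 and 0.0693. Of 20 genes of bile acid synthesis and export 14 were above 0 with a median difference of 0.0693, and of 18 genes of lipid droplets and triglyceride lipases 10 were (median 0.0586). Glycolysis and fructolysis had 5 of 10 genes above 0 (median -0.0112) and glycogen metabolism 3 of 10 (median -0.0293), in which Ppp1r3c at 0.70 was the highest. Of 17 genes of the integrated stress response 11 were above 0 (median 0.0405), and of 16 NRF2 and antioxidant genes 6 (median -0.027). Acute phase proteins had 9 of 19 above 0 (median -0.00362), inflammatory cytokine genes 5 of 11 (median -0.0261), immediate-early genes 7 of 15 (median -0.0472) and fibrosis genes 6 of 14 (median -0.0672). No member of any of these lists was called by limma.

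Of 7832 probe sets with no gene symbol or several, 0 were called by limma in CR minus HFD at an adjusted p of 0.05, and 345 had an unadjusted p under 0.05. The smallest adjusted p was 0.7229.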
